A study of Homo sapiens with 10 samples.

Results

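The genes described here are the longest protein-coding genes that HCT116 cells express, an established human colorectal carcinoma line of epithelial origin. A gene belongs to the set when its span, from the lowest start to the highest end of its listed transcripts in a table, is at least 300000 bases and its mean level over the libraries of that table is at least 1 FPKM (fragments per kilobase per library total, a level that takes transcript length and library size into account). The inhibitor table holds 303 such genes among 11741 coding genes at that level and 15586 genes in all. The table of EV and WT holds 287 and the table of EV and K56A holds 290. The 3 tables together name 321 genes, and 270 qualify in every table. The genes were selected on 2 values, span and mean level, so neither is a finding. The difference between groups was not used in the choice.

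Polyadenylated RNA was read in 10 libraries, 2 for each of 5 groups. One experiment set cells given DMSO beside cells given EPZ-5676 (EPZ), an inhibitor of the histone methyltransferase DOT1L, at 10 µM for 72 h. In the other experiment an shRNA against CDK9 was present in all 3 groups. WT then received wild-type CDK9, K56A received CDK9 carrying alanine in place of lysine 56, and EV is a name that the labels leave unexplained. They name no promoter for the introduced CDK9 and do not say whether replicates were grown separately, so a p-value here speaks of the spread among these libraries, which may be technical only.

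A polymerase that starts at the promoter of a very long gene has to travel through introns that make up almost all of the gene before it reaches the poly(A) site. CDK9 is the kinase of P-TEFb, the factor that frees RNA polymerase II from its pause near the promoter and drives elongation, and DOT1L methylates lysine 79 of histone H3 along transcribed gene bodies. Very long genes are therefore used to look for changes in elongation or in early polyadenylation, and several of them lie at common fragile sites, regions that break under replication stress. An mRNA library reads the level of finished transcripts and not the movement of polymerase.

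CDK9, the introduced gene, and DOT1L, the target of the inhibitor, were checked first. CDK9, a gene of 4.76 kb and no member of the set, was at 16.4 and 19.4 FPKM in EV against 3060 and 2976 in WT and 2609 and 2499 in K56A. With limma it was higher by 7.36 ± 0.073 (SE) in WT and by 7.12 ± 0.075 in K56A on the log2(FPKM + 0.5) scale. CDK9 had 43.9 and 37.6 FPKM under DMSO against 41.9 and 38.5 under EPZ. DOT1L was at 12.6 and 12.5 FPKM under DMSO and 10.7 and 10.4 under EPZ. In the knockdown experiment, normalised separately, DOT1L was at 324 and 343 FPKM in EV, at 578 and 568 in WT and at 733 and 703 in K56A, which the labels do not mention. Of 8 epithelial markers, 5 (among them EPCAM and KRT8) were at a mean of 1 FPKM or more in each table and 3, the intestinal markers CDH17, VIL1 and LGALS4, were absent or listed at 0. Of 6 fibroblast markers COL1A1 alone reached that level. The summed level of the immune and endothelial marker lists stayed under 1 FPKM in every library. DMSO replicate 1 stands apart from the other libraries of its table, with 54216 transcripts above 0 against 59403 to 59913. Values without it follow for the EPZ medians of the members and their lists, and for the members' counts by direction. The EPZ values of the elongation list, the isoform shares and the authors' calls are given with it only. So is the count of members at an unadjusted p under 0.05. The tables give no counts, so the depth in reads is unknown.

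Coding genes of 20 to 50 kb serve as comparison genes throughout. Intron length follows from the span that chose the members, so the structure is given as a description. The median span in the inhibitor table was 404.6 kb. A total of 81 genes spanned 500 kb or more and 6 spanned 1 Mb or more. GENCODE release 29 holds the most abundant transcript of 292 of the 303 genes and of 3237 of 3302 comparison genes. By that annotation the most abundant transcript had a median of 16 exons, against 9 in the comparison genes, and 4653 exonic bases, against 2649. Introns made up a median of 98.7% of the transcribed stretch, against 90.4%. The median longest intron measured 116 kb, against 9.54 kb, and 178 of the 292 transcripts held an intron of 100 kb or more. The release differs from the authors' annotation, since 44.1% of the matched transcripts had the same start and end in both.

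The 10 longest genes of the inhibitor table were LRP1B (1900 kb, a receptor of the LDL receptor family), FHIT (1504 kb, a dinucleoside polyphosphate hydrolase), CCSER1 (1474 kb), WWOX (1113 kb, a WW domain oxidoreductase), ZFHX3 (1109 kb, a homeobox factor), PTPRN2 (1049 kb), ASTN2 (992 kb), CAMTA1 (984 kb, a calmodulin-binding transcription factor), DIAPH2 (920 kb, a formin) and HDAC9 (915 kb, a histone deacetylase). Just inside the span limit lay MGMT with 300329 bases and COBL with 300606. NUBPL with 299820 and JMJD1C with 298756 lay just outside. At the level limit, GLIS3 with a mean of 1.002 FPKM and HECW2 with 1.066 lay inside, and ADAMTS17 with 0.956 and MEGF11 with 0.925 lay outside.

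Chromosome 18 had the highest share of very long genes, 12 of 163 coding genes at 1 FPKM or more (7.36%). Chromosome 4 followed with 22 of 418 (5.26%), and chromosome 19 had the lowest share, 1 of 843 (0.119%).

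Span is a property of the whole gene, and not every member makes a long transcript. Transcripts that themselves span 300 kb or more carried a median of 74.2% of a member's FPKM in the inhibitor table, 72.0% in the table of WT and 69.6% in that of K56A. Of the 303 genes of the inhibitor table, 95 had 90% or more of their FPKM in such transcripts. Another 16 had under 5%, among them MRPS22 (1.80%), a protein of the small subunit of the mitochondrial ribosome, MACF1 (1.302%), a cytoskeletal cross-linker, PALLD (0.601%), an actin-associated protein, and CAMTA1 (3.16%). For 5 genes no listed transcript reached 300 kb.

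The promoters of 4 members are shown because the results return to these genes. Each is RefSeq's stretch from 250 bases before to 50 bases after the start (build GRCh38.p14). Capitals mark the GC box, GGGCGG read on either strand.
CAMTA1 (chr1:6785204-6785503, plus strand): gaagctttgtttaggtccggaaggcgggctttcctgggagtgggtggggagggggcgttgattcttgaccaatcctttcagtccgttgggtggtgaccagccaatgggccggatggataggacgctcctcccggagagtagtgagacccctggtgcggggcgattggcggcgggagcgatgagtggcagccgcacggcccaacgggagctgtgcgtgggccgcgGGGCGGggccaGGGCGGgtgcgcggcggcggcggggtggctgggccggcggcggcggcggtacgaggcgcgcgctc
FHIT (chr3:61251403-61251702, minus strand): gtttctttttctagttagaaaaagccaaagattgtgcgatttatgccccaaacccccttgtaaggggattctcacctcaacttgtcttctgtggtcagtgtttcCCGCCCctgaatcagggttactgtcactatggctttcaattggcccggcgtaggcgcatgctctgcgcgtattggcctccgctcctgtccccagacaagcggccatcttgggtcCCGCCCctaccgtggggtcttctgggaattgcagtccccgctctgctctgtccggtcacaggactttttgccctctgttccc
WWOX (chr16:78099404-78099703, plus strand): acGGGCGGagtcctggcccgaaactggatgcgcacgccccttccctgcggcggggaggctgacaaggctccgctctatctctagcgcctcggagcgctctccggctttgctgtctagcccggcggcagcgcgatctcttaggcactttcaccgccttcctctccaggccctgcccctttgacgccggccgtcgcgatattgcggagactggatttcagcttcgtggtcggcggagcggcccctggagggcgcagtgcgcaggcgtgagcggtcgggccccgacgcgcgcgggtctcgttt
IMMP2L (chr7:111562443-111562742, minus strand): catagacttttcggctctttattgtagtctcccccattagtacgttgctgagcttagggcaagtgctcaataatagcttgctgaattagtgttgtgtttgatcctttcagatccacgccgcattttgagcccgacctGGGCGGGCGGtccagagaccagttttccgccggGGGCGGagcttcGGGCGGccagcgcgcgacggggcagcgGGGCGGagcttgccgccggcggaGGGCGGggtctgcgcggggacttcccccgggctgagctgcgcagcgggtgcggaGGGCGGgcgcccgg
The start of the most abundant transcript lay 26 bases from the RefSeq start in CAMTA1, 39 in FHIT, 2 in WWOX and 5 in IMMP2L. The 4 stretches held 2, 2, 1 and 7 GC boxes in that order, and none held TATAAA on either strand.

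A RefSeq promoter was found by symbol and chromosome for 249 of the 303 members and 2657 of the 3302 comparison genes. The one nearest to the start of the most abundant transcript was taken, and it lay within 500 bases of that start in 188 members (75.5%) and in 87.8% of the matched comparison genes. The GC content had a median of 67.0% in members and 66.3% in comparison genes, against 58.7% over all 35116 promoters of the table. CG dinucleotides numbered a median of 29 in members, 28 in comparison genes and 14 over all promoters. A GC box on either strand was present in 167 members (67.1%), in 76.6% of comparison genes and in 45.0% of all promoters. A CCAAT box (CCAAT on either strand) was present in 31.7%, 36.5% and 34.6%, and TATAAA on either strand in 3.21%, 3.27% and 11.5%. These shares describe the letters in the window and carry no test.

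The very long genes had the lowest median level of all span classes, given without a test since a level limit chose them. The median FPKM of coding genes at 1 FPKM or more was 19.4 for spans under 5 kb, 16.5 for 20 to 50 kb, 11.04 for 100 to 300 kb and 6.28 for 300 kb or more in the inhibitor table. The mean level of 1 FPKM was reached by 80.4% of the 377 listed coding genes of 300 kb or more, against 92.1% of those of 20 to 50 kb. In the knockdown tables the median was 5.40 and 5.49 FPKM. In all, the very long genes made up 0.462% to 0.546% of the summed FPKM of a library.

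**Figure D1:**
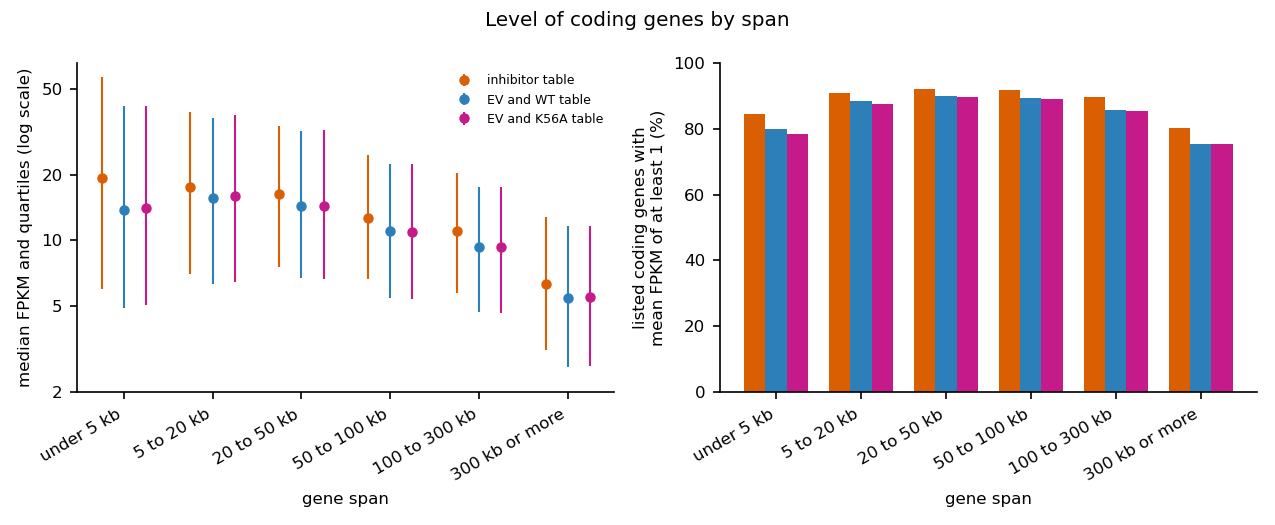
Left, median FPKM of coding genes at 1 FPKM or more by gene span, with quartiles as bars, on a log axis; right, the percentage of listed coding genes that reach a mean of 1 FPKM. Colours are the 3 tables; genes of 300 kb or more have the lowest median in each, 6.28, 5.40 and 5.49 FPKM.

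The most abundant members of the inhibitor table were PTK2, GSE1, SND1, DST and MRPS22. PTK2, focal adhesion kinase, was at 67.1 and 62.0 FPKM under DMSO and 70.6 and 61.6 under EPZ. SND1, an RNA-binding nuclease with a tudor domain, was at 53.6 and 51.1 under DMSO and 49.1 and 49.8 under EPZ. DST, a cross-linker of the cytoskeleton, was at 55.1 and 51.8 under DMSO and 47.0 and 45.2 under EPZ. The EPZ values of SND1 and DST lay below both DMSO values, and those of PTK2 overlapped with them.

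DOT1L inhibition left no very long gene past the threshold. With limma and Benjamini-Hochberg adjustment, 0 of the 302 members that passed the filter on low values were called at an adjusted p under 0.05, against 1 of all 13130 genes tested (0.00762%). At an unadjusted p under 0.05 there were 11 members (3.64%), against 5.83% of all genes. The EPZ libraries lay apart from the DMSO libraries in 121 members (40.1%), against 37.4% of all genes, with 67 higher under EPZ (22.2% against 18.6%) and 54 lower (17.9% against 18.8%).

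The log2 difference was above 0 in 178 of these 302 members (58.9%), against 50.5% of all genes. The median log2 difference between EPZ and DMSO was 0.032 over the 303 members and 0.043 over comparison genes weighted to the members' FPKM classes, a difference of -0.011. Over all 12993 genes with a mean of 1 FPKM or more it was 0.000396. By library, the median deviation of the members from their own mean was -0.060 and 0.036 under DMSO and 0.002 and 0.033 under EPZ. The gap of 0.096 between the DMSO replicates was therefore larger than the difference between the groups. Without DMSO replicate 1 the median of the members was -0.016, and without DMSO replicate 2 it was 0.078. The count above 0 among the same 302 members became 133 without DMSO replicate 1 (44.0%), against 48.4% of all genes. Both EPZ libraries then lay above the single DMSO library in 93 members (30.8% against 30.7%) and below it in 116 (38.4% against 31.9%).

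DMSO replicate 1 deviated with gene span. Its median deviation was 0.112 for coding genes under 5 kb, -0.021 for 20 to 50 kb and -0.060 for 300 kb or more. EPZ replicate 2 moved the other way, from -0.088 under 5 kb to 0.033 at 300 kb or more. DMSO replicate 2 and EPZ replicate 1 ranged from -0.011 to 0.036 over the span classes. With DMSO replicate 2 left out, DMSO replicate 1 alone stood for the control and was assumed to vary like EPZ. The members' median log2 difference was then 0.078, against -0.016 without DMSO replicate 1. The part that its lower number of transcripts above 0 has in these values was not tested.

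**Figure D2:**
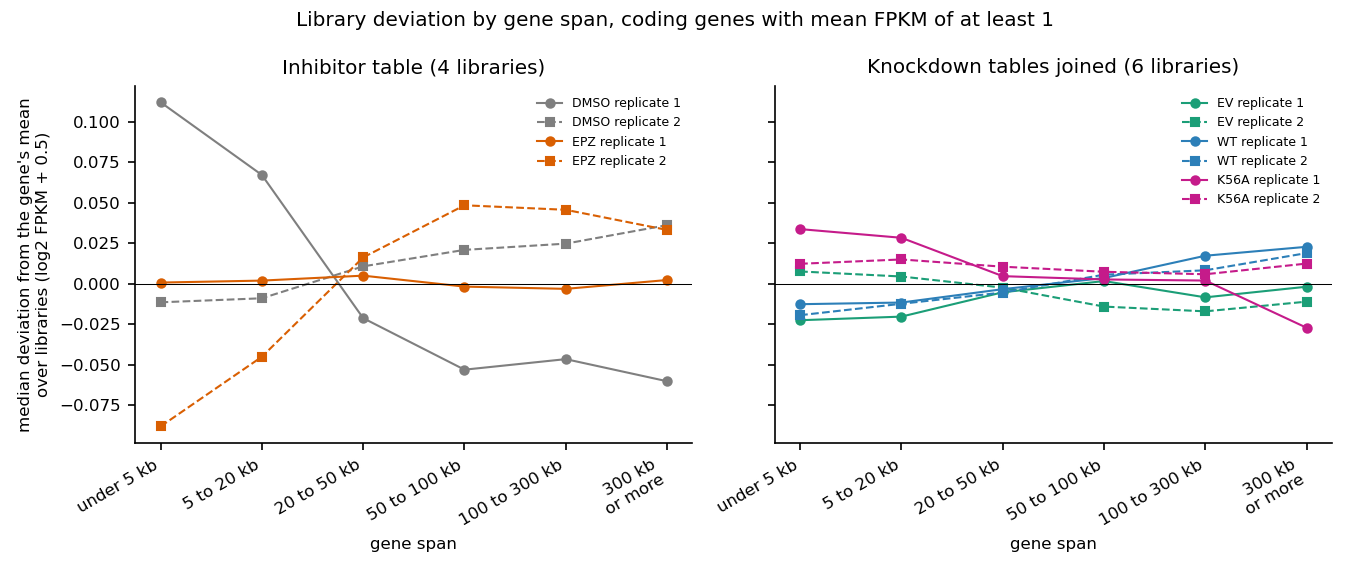
Median deviation of coding genes from their own mean over libraries (log2 scale, FPKM + 0.5) by gene span, for the 4 libraries of the inhibitor table (left) and the 6 libraries of the knockdown tables joined (right). DMSO replicate 1 runs from 0.112 to -0.060; the knockdown libraries stay between -0.027 and 0.034.

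The 5 members with the smallest p in each direction were described, although none passed. GTDC1 (chr2:143938068-144332516), which encodes a glycosyltransferase-like protein, was at 2.29 and 2.54 FPKM under DMSO and 4.14 and 4.13 under EPZ. The 2 groups lay well apart, with a log2 difference of 0.67 ± 0.18 (SE) and an adjusted p of 0.756. RGS6, a regulator of G protein signalling, was at 1.52 and 1.59 under DMSO and 2.76 and 2.98 under EPZ. MAP2, a microtubule-associated protein, BCAS3 and LPP, a LIM domain protein of focal adhesions, were higher by 0.43, 0.43 and 0.42 on the log2 scale, with groups that did not overlap.

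On the lower side, SPECC1 (chr17:20008865-20319026) was at 19.7 and 18.1 FPKM under DMSO and 14.3 and 12.5 under EPZ, a log2 difference of -0.48 ± 0.14 (SE). SPIDR, a scaffold protein of homologous recombination, was at 29.8 and 32.3 under DMSO and 26.1 and 24.0 under EPZ. APBB2 was lower by 0.31, and the ubiquitin ligases NEDD4L and HECW1 by 0.28 and 0.50, on the log2 scale. Without EPZ replicate 1 the difference of APBB2 was -0.20 and that of HECW1 -0.25, and without EPZ replicate 2 that of HECW1 was -0.75. For NEDD4L and HECW1 the sign turned when only coding transcripts were summed (0.24 and 0.03). All 10 genes had the same adjusted p, 0.756.

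FGGY, picked after its values were seen, had the largest difference of all members in this comparison. It was listed at 0 in DMSO replicate 1, at 1.61 FPKM in DMSO replicate 2 and at 2.11 and 2.08 under EPZ. The difference therefore lay mainly between DMSO replicate 1 and the other 3 libraries.

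The comparison of WT with EV, both in cells with the shRNA against CDK9, sets cells given CDK9 beside EV. WT held 3060 and 2976 FPKM of CDK9, against 43.9 and 37.6 under DMSO in the experiment normalised separately. DOT1L differed as well, at 324 and 343 in EV and 578 and 568 in WT. The part of each in the differences below was not tested. No member was called, 0 of 286 against 10 of 13729 genes (0.0728%). At an unadjusted p under 0.05 there were 27 members (9.44% against 11.8%). Groups lay apart in 113 members (39.5% against 43.1%), 76 of them higher in WT (26.6% against 23.7%) and 37 lower (12.9% against 19.4%). The log2 difference was above 0 in 175 members (61.2% against 54.8%). The median log2 difference of the 287 members was 0.034, that of the level-weighted comparison genes was 0.032 and that of all genes was 0.015.

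Both WT libraries stood above both EV libraries in the members' median deviation, -0.008 and -0.023 in EV and 0.021 and 0.024 in WT. The comparison genes moved almost as much, with -0.001 and -0.015 in EV and 0.020 and 0.012 in WT. The members less the comparison genes came to -0.007 and -0.008 in EV and 0.001 and 0.012 in WT. The WT values lay above the EV values, with a gap of 0.011 between the WT libraries, while the median of the members' differences less that of the comparison genes was 0.002. In the 41 members of 600 kb or more the median deviation was -0.058 and -0.019 in EV and 0.037 and 0.022 in WT, a median difference of 0.078, against 0.033 in the 140 members of 300 to 400 kb and 0.020 in the 106 of 400 to 600 kb. Within the members the median difference therefore did not follow the order of the span classes. Over the span classes of coding genes it was -0.003 under 5 kb, 0.004 for 5 to 20 kb and 0.011 for 20 to 50 kb. It was 0.023 for 50 to 100 kb, 0.036 for 100 to 300 kb and 0.034 for 300 kb or more, so it rose up to 300 kb.

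SYT1 (chr12:78863993-79452008, 588 kb), the calcium sensor of vesicle release, had the smallest p. It was at 37.0 and 34.0 FPKM in EV and 27.9 and 27.8 in WT, a log2 difference of -0.34 ± 0.063 (SE) with an adjusted p of 0.130. SYT1 is usually taken as a neuronal marker, and of the other 3 genes on the neuron list none reached a mean of 1 FPKM in this table. In the inhibitor table, normalised separately, SYT1 was at 5.14 and 5.96 FPKM under DMSO and 6.37 and 5.80 under EPZ. WDR70, the helix-loop-helix factor TCF12, SND1 and the ceramide synthase CERS6 were lower by 0.36, 0.22, 0.14 and 0.18 on the log2 scale. Without WT replicate 2 the difference of WDR70 was -0.21. For WDR70 and TCF12 the sign turned with coding transcripts alone (0.06 and 0.20).

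On the higher side stood CCDC91, CAMTA1, AC018630.2, TRIO and EHBP1. CCDC91, a partner of GGA adaptors in trafficking, was at 4.58 and 4.47 FPKM in EV and 6.35 and 5.999 in WT (log2 difference 0.41 ± 0.10 SE, adjusted p = 0.212). TRIO was at 30.5 and 29.8 in EV and 35.1 and 33.7 in WT. CAMTA1 was at 15.8 and 16.2 in EV and 20.7 and 18.2 in WT.

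Most of the CAMTA1 difference lay in a short transcript. CAMTA1-202, a nonsense-mediated decay transcript of 102 kb, was at 1.24 and 1.12 FPKM in EV and 4.23 and 4.06 in WT, with an adjusted p of 0.020 in the authors' deposited table. CAMTA1-201, the coding transcript of 984 kb, was at 0.989 and 0.954 in EV and 0.801 and 1.01 in WT. With coding transcripts alone the log2 difference of the gene was -0.09.

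The comparison of K56A with EV gave 0 called members of 289, against 22 of 13782 genes (0.16%). At an unadjusted p under 0.05 there were 28 members (9.69% against 13.5%). Groups lay apart in 135 members (46.7% against 45.1%), 75 higher (26.0% against 28.6%) and 60 lower (20.8% against 16.5%). The log2 difference was above 0 in 166 members (57.4% against 59.4%). The median log2 difference was 0.017 over the 290 members, 0.032 over the comparison genes and 0.032 over all genes. When the libraries were rescaled by the median ratio, the members' median became -0.009.

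The median deviation of the members in this table was -0.004 and -0.007 in EV and -0.007 and 0.022 in K56A, so the groups overlapped. The members less the comparison genes came to 0.001 and 0.015 in EV and -0.020 and 0.003 in K56A. Without K56A replicate 1 the difference between members and comparison genes was 0.008, and without K56A replicate 2 it was -0.032.

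PCCA (chr13:100089093-100530435, 441 kb), the alpha subunit of propionyl-CoA carboxylase, had the smallest p. It was at 6.89 and 6.39 FPKM in EV and 4.64 and 4.49 in K56A, a log2 difference of -0.49 ± 0.10 (SE) with an adjusted p of 0.143. SYT1 was at 37.0 and 34.0 in EV and 27.6 and 29.5 in K56A (adjusted p = 0.163). WT and K56A are compared with the same EV libraries, so the position of SYT1 in both comparisons is not independent. The zinc transporter SLC39A11, SUMF1, the formylglycine-generating enzyme, and TCF12 were lower by 0.28, 0.27 and 0.30 on the log2 scale. SUMF1 had 0.202% of its FPKM in transcripts of 300 kb or more, so its level came almost wholly from shorter transcripts. The sign of TCF12 turned with coding transcripts alone (0.007).

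Among the higher genes, TRIO was at 29.8 and 29.8 FPKM in EV and 33.7 and 36.4 in K56A (log2 difference 0.23 ± 0.060 SE, adjusted p = 0.217). PTPRM, a receptor tyrosine phosphatase, ARL15, an ARF-like GTPase, KDM4C, a demethylase of histone H3 lysine 9, and DNAH14, a dynein heavy chain, were higher by 0.34, 0.41, 0.24 and 0.28 on the log2 scale, and DNAH14 by 0.18 without EV replicate 1. RSRC1 was called as lower in this comparison only in the fit without K56A replicate 2, which left K56A with 1 library. It was at 8.43 and 9.12 in EV, 4.55 in K56A replicate 1 and 10.1 in K56A replicate 2, so the K56A replicates stood on either side of EV.

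The direct comparison of K56A with WT used the 6 knockdown libraries and 247 members. It gave 0 called members, against 7 of 12866 genes (0.0544%), and 15 at an unadjusted p under 0.05 (6.07% against 12.5%). Groups lay apart in 106 members (42.9% against 45%). Of these, 70 were lower in K56A (28.3% of members against 19.6% of all genes) and 36 were higher (14.6% against 25.4%). In 102 of the 247 members the log2 difference was above 0 (41.3%), against 53.7% of all genes.

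The median log2 difference between K56A and WT was -0.027 over the members, 0.002 over the comparison genes and 0.011 over all genes. The members less the comparison genes came to -0.029. By library this quantity was 0.017 and 0.015 in WT, -0.034 and 0.003 in K56A, and 0.001 and 0.007 in EV. The 2 WT values lay above the 2 K56A values. The K56A replicates differed from each other by 0.038, more than the groups did. With a span of at least 500 kb the members less the comparison genes came to -0.067. Leaving out 1 library at a time gave -0.043 to -0.018. The median log2 difference fell over the span classes of coding genes, also below 300 kb. It was 0.040 under 5 kb, 0.032 for 5 to 20 kb and 0.008 for 20 to 50 kb. It was -0.00022 for 50 to 100 kb and -0.013 for 100 to 300 kb. Within the members it was -0.016 for 300 to 400 kb, -0.026 for 400 to 600 kb and -0.048 for 600 kb or more. In the 32 members of 600 kb or more the median deviation was 0.048 and 0.028 in WT and -0.030 and 0.017 in K56A. It was -0.038 and -0.032 in EV, below both K56A values.

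**Figure D3:**
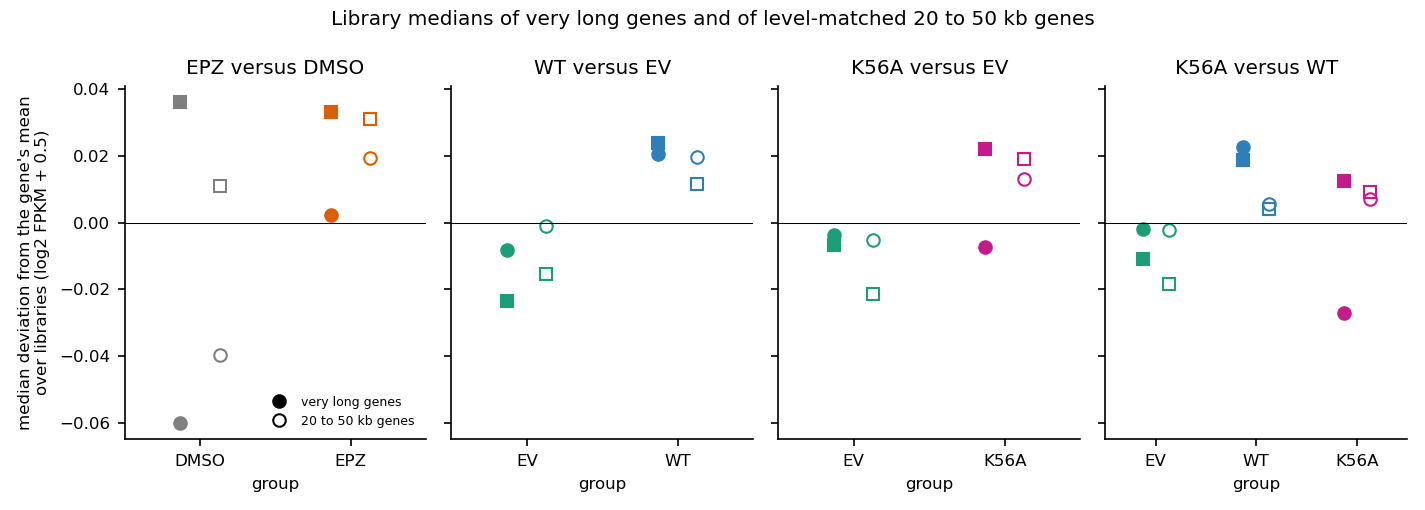
Median deviation of the very long genes (filled) and of level-matched coding genes of 20 to 50 kb (open) by library on the log2 scale, for the 4 comparisons; circles are replicate 1 and squares replicate 2. Very long genes stand at -0.060 in DMSO replicate 1, and in the 6 knockdown libraries at -0.027 in K56A replicate 1 and 0.023 and 0.019 in WT.

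In this comparison GALNT18 (chr11:11270877-11622005), a glycosyltransferase of the polypeptide N-acetylgalactosaminyltransferase family, had the smallest p. It was at 17.1 and 17.0 FPKM in WT and 20.4 and 20.5 in K56A, a log2 difference of 0.25 ± 0.057 (SE) with an adjusted p of 0.173. SIPA1L3, the spindle checkpoint gene MAD1L1, ZFAND3 and RPTOR, a subunit of the mTORC1 kinase complex, were higher by 0.28, 0.32, 0.24 and 0.17 on the log2 scale. MAD1L1 came to 0.15 without K56A replicate 1 and 0.49 without K56A replicate 2, and ZFAND3 to 0.12 without K56A replicate 2.

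PPP3CA, the catalytic subunit of calcineurin, was at 40.1 and 37.5 FPKM in WT and 33.7 and 33.5 in K56A (log2 difference -0.20 ± 0.053 SE, adjusted p = 0.1996). CAMTA1, SCAPER, the kinesin KIF16B and KIAA1217 were lower by 0.28, 0.42, 0.33 and 0.33. Without WT replicate 1 the difference was -0.15 for CAMTA1 and -0.26 for SCAPER. CAMTA1 was at 20.1 and 16.7 in WT and 14.8 and 15.1 in K56A, and its sign turned with coding transcripts alone (0.05).

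**Figure D4:**
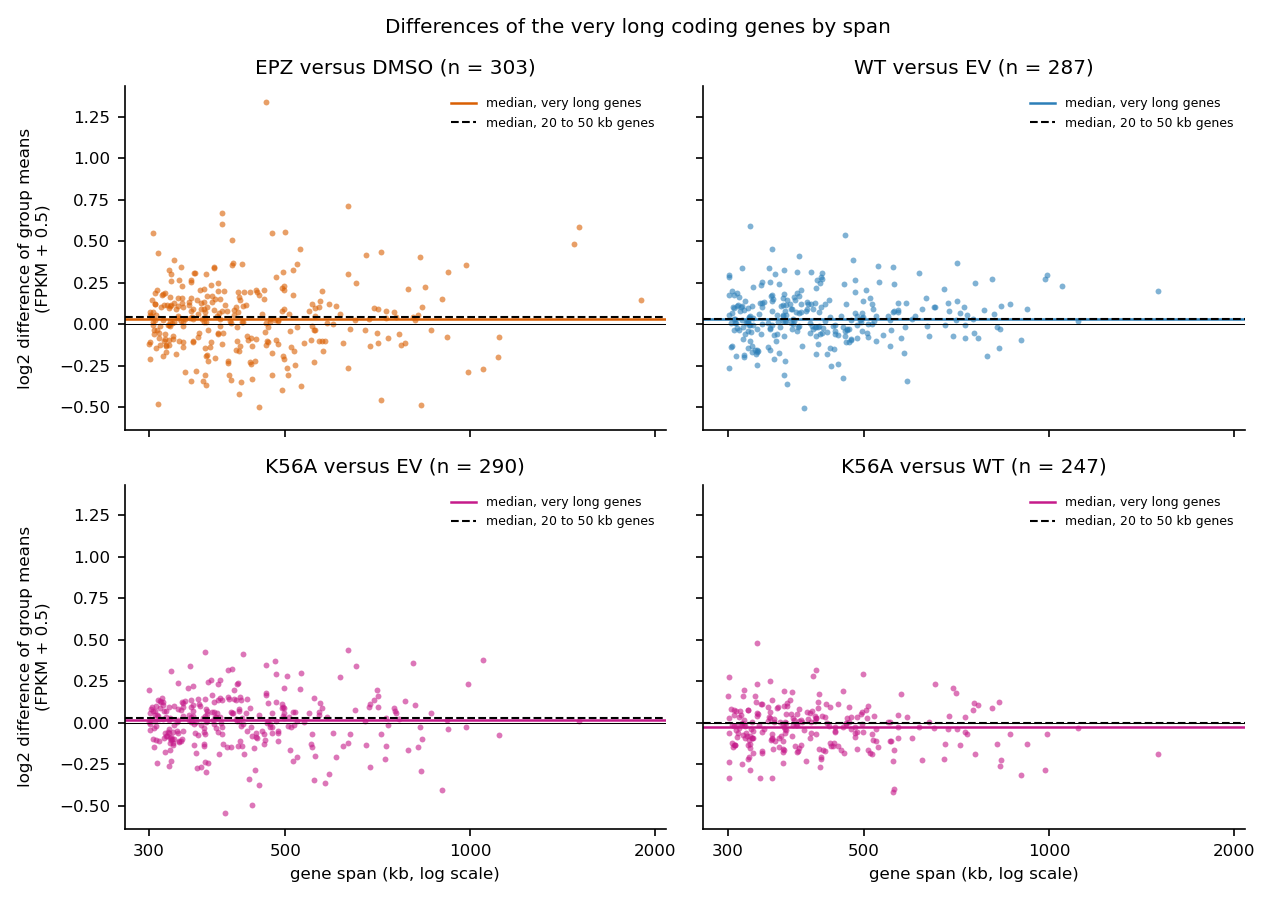
Log2 difference of group means of each very long gene against its span (log axis) in the 4 comparisons, with the median of these genes (coloured line) and of level-matched genes of 20 to 50 kb (dashed line). The coloured medians lie at 0.032, 0.034, 0.017 and -0.027.

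Genes of common fragile sites form a group with a role of its own among the members. The list of 37 symbols has 14 members in the inhibitor table, 11 in each knockdown table and 10 in the 6-library set. None was called in any comparison by limma. For EPZ, WT against EV, K56A against EV and K56A against WT, 1, 0, 1 and 1 had an unadjusted p under 0.05. Of all genes, 5.83%, 11.8%, 13.5% and 12.5% did. The median log2 difference for EPZ was 0.15 with 10 of 14 above 0, beside 58.9% of all members and 50.5% of all genes. Without DMSO replicate 1 that median was -0.014 with 6 of 14 above 0, so its direction turned. The median was 0.02 for WT (6 of 11 above 0), -0.07 for K56A against EV (3 of 11) and -0.10 for K56A against WT (2 of 10). Of all members, 61.2%, 57.4% and 41.3% were above 0 in these comparisons, and of all genes 54.8%, 59.4% and 53.7%.

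FHIT (chr3:59747277-61251459) was at 0.906 and 4.45 FPKM under DMSO and 3.39 and 3.53 under EPZ. DMSO replicate 1 was low and the EPZ values lay between the DMSO replicates. The log2 difference was 0.58 ± 0.50 (SE), and -0.32 without DMSO replicate 1. The coding transcript FHIT-205, of 1502 kb, was at 0.311 FPKM in DMSO replicate 1 and 3.34 in DMSO replicate 2. In the knockdown experiment FHIT was at 3.75 and 3.62 in EV, at 4.64 and 3.996 in WT and at 3.58 and 3.87 in K56A.

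WWOX (chr16:78099654-79212667) was at 7.43 and 4.78 FPKM under DMSO and 6.19 and 5.11 under EPZ. Its transcript WWOX-201, which spans 179 kb, was at 3.23 FPKM in DMSO replicate 1 and 0.950 in DMSO replicate 2. The 1113 kb transcripts WWOX-203 and WWOX-214 were at 1.05 and 1.39 in DMSO replicate 1 and at 1.23 and 1.05 in DMSO replicate 2. DIAPH2, on chromosome X, was at 1.92 and 3.81 under DMSO and 3.36 and 3.66 under EPZ. As with FHIT, the low value was that of DMSO replicate 1. The same held for IMMP2L, with 3.43 and 5.80 under DMSO and 5.05 and 5.03 under EPZ. CCSER1 was at 2.22 and 2.59 under DMSO and 4.23 and 2.97 under EPZ, and LRP1B at 1.39 and 1.81 under DMSO and 1.75 and 1.87 under EPZ.

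IMMP2L (chr7:110662644-111562517), a peptidase subunit of the mitochondrial inner membrane, was at 5.47 and 5.57 FPKM in EV and 3.73 and 4.41 in K56A. The log2 difference was -0.40 ± 0.12 (SE) with an adjusted p of 0.245. The 2 WT libraries were at 4.07 and 6.49, on either side of EV. MAD1L1 was at 7.85 and 8.37 in EV and 6.93 and 7.28 in WT in 1 table, and at 10.7 and 9.11 in K56A against 8.05 and 8.65 in EV in the other.

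**Figure D5:**
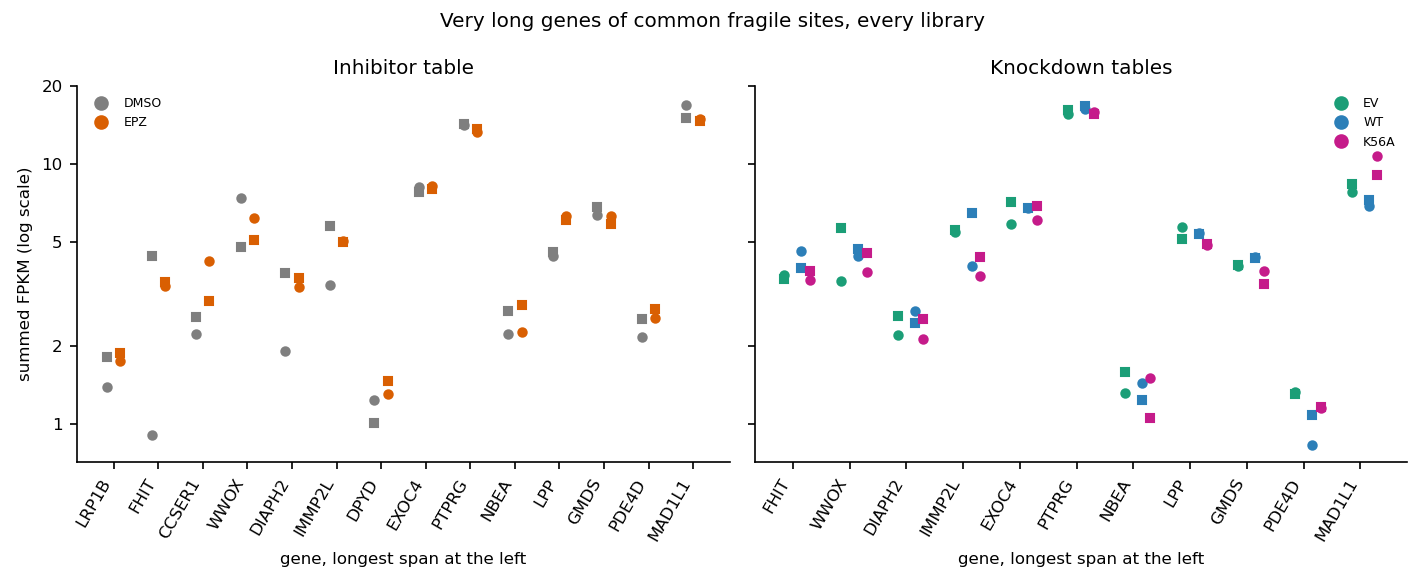
Summed FPKM (log axis) of the very long genes of common fragile sites in every library of the inhibitor table (left, 14 genes) and the knockdown tables (right, 11 genes); circles are replicate 1 and squares replicate 2. DMSO replicate 1 lies apart for FHIT (0.906 FPKM) and DIAPH2 (1.92 FPKM).

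Other roles were read from lists, on which 128 of the 303 members of the inhibitor table do not stand. The 45 members concerned with the cytoskeleton and small GTPases, among them DST, MACF1, PALLD and MYO1D, had a median log2 difference of 0.06 for EPZ. In WT against EV 35 of 44 of them were above 0 with a median of 0.08, beside 61.2% of all members and 54.8% of all genes. In K56A against EV it was 31 of 43 with 0.06, beside 57.4% and 59.4%. In K56A against WT 15 of 37 were above 0, beside 41.3% and 53.7%. The 24 kinases, phosphatases and phosphodiesterases of the inhibitor table, among them PTK2, PPP3CA, CAMK2D and STK3, had a median of 0.03 for EPZ. The list had a median of -0.01 for WT against EV (10 of 22 above 0) and -0.06 for K56A against EV (7 of 21). It was -0.05 for K56A against WT (7 of 20), beside the same background shares. None of these genes was called.

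The 12 members of adhesion, polarity and the cell surface, such as PTPRK, FNDC3B and MAGI1, had a median of 0.06 for EPZ. In WT against EV 9 of 10 of them were above 0, in K56A against EV 6 of 10 and in K56A against WT 5 of 10, beside the same background shares. The 27 regulators of transcription, chromatin and RNA binding (SND1, MED13L, TCF12 and CUX1 were the most abundant) had a median of -0.02 for EPZ. The 28 trafficking and scaffold genes, such as EHBP1, STX8, VTI1A and COG5, had 0.02. The 33 metabolic and transport genes, such as ACACA, FTO, OXR1 and CERS6, had 0.05. The 8 ubiquitin genes, among them ZFAND3, FAF1, NEDD4L and UBE2E2, had -0.01. In WT against EV 12 of 23 transcription, 17 of 27 trafficking, 16 of 30 metabolic and 3 of 7 ubiquitin genes were above 0. For K56A against EV the counts were 17 of 25, 19 of 27, 14 of 28 and 4 of 7 in that order. For K56A against WT they were 8 of 18, 8 of 22, 12 of 28 and 3 of 7, beside the same background shares. Without DMSO replicate 1 the EPZ medians were -0.026 for the cytoskeleton list, -0.060 for kinases and phosphatases, 0.066 for adhesion, 0.011 for transcription, -0.063 for trafficking, -0.056 for metabolism and -0.083 for ubiquitin. Of these 7 lists, adhesion and ubiquitin kept their sign.

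The machinery that elongates and terminates transcripts was measured from a list of 64 genes, all of them tested. In EPZ against DMSO none was called. The log2 difference was above 0 in 38 of them for EPZ, 33 for WT against EV, 45 for K56A against EV and 35 for K56A against WT, beside 50.5%, 54.8%, 59.4% and 53.7% of all genes. CSTF2, a cleavage stimulation factor, had the smallest p, with 17.1 and 16.8 FPKM under DMSO and 13.4 and 13.8 under EPZ. In WT against EV and in K56A against EV, CDK9 and DOT1L rose and no other gene of the list was called. In K56A against WT DOT1L alone was called (log2 difference 0.32 ± 0.037 SE, adjusted p = 0.043). CPSF1, a cleavage and polyadenylation factor, was at 105 and 101 FPKM in WT and 121 and 123 in K56A, with an adjusted p of 0.129.

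Early ends of transcripts within the members were examined from the deposited isoforms. For each member the share of its FPKM in transcripts that end before the midpoint of the gene was averaged over members. It was 4.87% and 4.87% under DMSO and 4.87% and 4.67% under EPZ. In the table of WT it was 4.31% and 4.45% in EV and 4.75% and 4.71% in WT. The comparison genes of that table were at 6.52% and 6.50% in EV and 6.49% and 6.39% in WT. The members' median was 0 in each of the 4 libraries, and 247 of the 287 members had under 10%, so few genes set the mean. The 3 largest differences, singled out after they were seen, were those of HIVEP3, FAM172A and SCFD2, higher in WT by 28.7, 23.0 and 22.0 percentage points. In this table HIVEP3 and SCFD2 had no FPKM in such transcripts in EV replicate 2, against 37.6% and 13.4% in EV replicate 1. In the table of K56A the same EV replicates had 44.4% and 34.4% for HIVEP3, and 0 and 0 for SCFD2. These 2 differences therefore depend on the transcripts listed. The mean share over members in the table of K56A was 5.13% and 5.35% in EV and 5.09% and 5.08% in K56A. The tables list different transcripts, so the EV values differ between them.

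The share in transcripts that start after the midpoint was 18.2% and 17.9% under DMSO and 18.1% and 17.4% under EPZ, against 8.90% to 9.40% in the comparison genes. In the table of WT it was 21.8% and 22.5% in EV and 22.2% and 21.8% in WT, and in that of K56A 21.8% and 22.2% in EV and 22.2% and 23.2% in K56A. The share in transcripts that span 300 kb or more was 66.0% and 66.7% under DMSO and 66.6% and 67.2% under EPZ, 63.6% and 62.7% in EV and 63.7% and 63.4% in WT. In the table of K56A it was 62.3% and 61.7% in EV and 62.4% and 61.5% in K56A. In each of these sets the group ranges overlapped or the groups differed by less than the gap between replicates.

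Transcripts of the retained intron type carried a mean of 3.86% to 4.26% of a member's FPKM in the inhibitor table. The mean was 7.95% to 8.45% in the comparison genes. The members' median was 0 in each library, and 258 of the 303 members had under 10%. In the table of WT the members' mean share was 6.29% and 6.63% in EV and 6.37% and 5.86% in WT. In the table of K56A the mean share was 6.34% and 6.67% in EV and 5.91% and 6.41% in K56A.

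The authors' own calls are per transcript. At an adjusted p under 0.05 in the authors' deposited table, 24 of 1409 member transcripts were called for EPZ (1.7%, against 1.25% of transcripts of all coding genes), 48 of 1438 for WT (3.34% against 3.52%) and 66 of 1466 for K56A (4.5% against 4%). Of these, 20, 32 and 36 were listed at 0 in both libraries of a group. The examples that follow were picked after their values were seen.

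STAU2-220, a coding transcript of an RNA-binding protein, was at 0.434 and 0.354 FPKM under DMSO and 3.47 and 4.73 under EPZ, with an adjusted p of 0.0264 in the authors' deposited table. MED13L-203, of a Mediator kinase module subunit, was at 8.19 and 1.66 under DMSO and 0.462 and 0.495 under EPZ (adjusted p of 0.0192 in the authors' deposited table). MED13L summed over its transcripts differed by -0.17 on the log2 scale. EHBP1-209 was at 4.90 and 5.39 in EV and 7.39 and 9.10 in WT. DST-236, which spans 24.0 kb, was at 2.54 and 3.73 in EV and 8.11 and 7.71 in K56A. ZBTB20-201, a transcript of 833 kb, was at 3.68 and 2.97 in EV and 2.28 and 2.02 in K56A.

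In all 5 groups the replicates lay closer together for the very long genes than for level-matched comparison genes, by medians and without a test. The median absolute log2 gap between the replicates of a group was 0.176 over members and 0.227 over comparison genes under DMSO, 0.116 against 0.149 under EPZ, 0.112 against 0.128 in EV, 0.0954 against 0.103 in WT, and 0.0856 against 0.0967 in K56A. The gap between the DMSO replicates was the widest in both sets. The match was on FPKM, which takes transcript length into account, and not on the number of fragments. In the inhibitor table the members' most abundant transcripts held a median of 4653 exonic bases, against 2649. The part of that length in these gaps was not tested.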

How the data were processed

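mRNA sequencing of 10 HCT116 libraries was used. Per the labels, TRIzol was used for extraction and 150 ng of total RNA entered each library (TruSeq mRNA kit). The authors deposited 3 tables of FPKM per transcript, each with 4 libraries, which list only transcripts above 0 in at least 2 libraries. Per the submitters' processing notes, the build was GRCh38 and the software included RSEM 1.3.3, STAR 2.7.1a, DESeq2 1.32.0 and Trim Galore 0.6.6, without roles. Annotation release and strand setting: not given in the sources used here. Overlapping genes on opposite strands, and near-identical copies, may therefore share reads. The authors deposited a log2 fold change, a p-value and its adjusted value for each transcript, made with edgeR for the inhibitor and DESeq2 for the knockdown tables, per the file headers. These served to describe calls of the authors, and 4 columns of group summaries were not used.

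FPKM of transcripts were summed per gene. A gene was tested if 2 or more libraries of its table reached 1 FPKM. The test was limma 3.58.1 under R 4.3.3 (two-sided, intensity trend) on log2(FPKM + 0.5), separately in each table, with Benjamini-Hochberg adjustment over all genes tested and a threshold of 0.05. K56A and WT were compared in 1 fit of 6 libraries over transcripts of both knockdown tables, with K56A rescaled by the EV libraries (factors 1.0007 and 1.0006). Genes with over 5% of their FPKM in transcripts of a single table were left out. Fold changes on this scale understate those of low genes. The fit was tested on simulated data.

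Medians of the members were set beside coding genes of 20 to 50 kb, weighted by FPKM class (edges 1, 2, 4, 8 and 16). Named genes are CDK9 and DOT1L, the 5 smallest p per direction and comparison with a mean FPKM of at least 2, the 10 longest and 5 most abundant genes, fragile-site genes, up to 4 most abundant genes per role list, those nearest the limits, and elongation genes that passed or had the smallest p. Members and lists were chosen with earlier results of these data known. Isoform shares, promoters, span classes within members, and counts and list medians without DMSO replicate 1 were added after seeing the data. Alternatives covered pseudocount, filter, scaling, transcript type, trend, replicate block, left-out libraries, span, level and comparison genes. Python 3.11.15 with numpy 2.4.6, pandas 2.3.3 and matplotlib 3.10.9 made the summaries. Coordinates are GRCh38, with starts and ends as deposited.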

Additional observations from a re-analysis of the deposited data

How the results depend on the processing

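No very long gene was called under any alternative that kept all libraries, in any of the 4 comparisons. With 1 library left out at a time, a group was left with a single library. Members were then called for EPZ against DMSO (without DMSO replicate 2) and for K56A against EV (RSRC1, without K56A replicate 2). No member was called in either other comparison. The number of all genes called moved more. For EPZ against DMSO it was 1, with 0 at a pseudocount of 0.1, 0 without the filter, 0 without the intensity trend, 3 with coding transcripts only, and 33 to 1592 when a library was left out. For WT against EV it was 10, with 2 without the filter, 36 after rescaling by the median ratio, 2 with coding transcripts only, 1 without the trend, 49 in 1 fit of the 6 libraries, and 2 to 9 when a library was left out. For K56A against EV it was 22, with 5, 47, 5, 1 and 73 under the same alternatives, and 18 to 77. For K56A against WT it was 7, with 1 without the filter, 1 with coding transcripts only, 0 without the trend, and 1 to 2 when a library was left out. The cause of these moves was not tested.

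With the replicate number as a block, 2, 9, 41 and 3 genes were called in the 4 comparisons in that order, with 0 members in each. The labels do not say that the numbers pair samples, and the deviations of same-numbered samples correlated, across genes, with r = 0.245, 0.025, -0.030 and -0.031.

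The median log2 difference of the members for EPZ ranged from -0.016 to 0.078 with a library left out, and less the comparison genes from -0.030 to 0.018. Against genes of 5 to 20 kb the latter was 0.052. For WT against EV the median was 0.023 after rescaling, 0.023 in the 6-library fit, 0.045 with a span of at least 200 kb, 0.064 with 500 kb, and 0.029 to 0.050 with a library left out. Less the comparison genes it was 0.012 with coding transcripts only, 0.016 with 200 kb, 0.030 with 500 kb, 0.021 against genes of 5 to 20 kb, and -0.00077 to 0.024 with a library left out. For K56A against EV the median was -0.0090 after rescaling and -0.0029 to 0.040 with a library left out. Less the comparison genes it was 5.5e-07 with 200 kb and -0.032 to 0.0076 with a library left out. For K56A against WT the median was -0.066 with 500 kb and -0.045 to -0.015 with a library left out. Less the comparison genes it was -0.067 with 500 kb, -0.057 against genes of 5 to 20 kb, and -0.043 to -0.018 with a library left out.

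Summing coding transcripts only turned the sign of NEDD4L (0.24) and HECW1 (0.033) in EPZ, of CAMTA1 (-0.093), WDR70 (0.056) and TCF12 (0.20) in WT against EV, of TCF12 (0.0075) in K56A against EV and of CAMTA1 (0.046) in K56A against WT. With a library left out, FHIT in EPZ ranged from -0.32 to 1.49 and CDK9 in EPZ from -0.13 to 0.10.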
